A study of Bos taurus with 9 samples.

Results

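Bovine chromosomes 19 and 25 are short and carry many genes for their length. The members described here were all peaks on these chromosomes in 8 peak lists, and they numbered 31004 of 673926 peaks, or 4.60%, on 4.02% of the nuclear genome. Chromosome 19 held 20550 of them over 64.02 Mb and chromosome 25 held 10454 over 42.90 Mb. They were compared with the 25 other autosomes except 5 and 14, called the other autosomes below, which held 550143 peaks over 2198.4 Mb. The pair was chosen with its peak densities and the change of its RNA polymerase II (Pol II) peaks in view, so those values are given as a description.

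The cells were MDBK, an established epithelial line from cattle kidney. They were grown either without treatment (control) or with 5 mM butyrate for 24 h, and chromatin was precipitated with antibodies to H3K9ac, H3K27ac, Pol II and H3K9me3. Each antibody and condition was represented by 1 library, and all control libraries were sequenced in lane 4 and all butyrate libraries in lane 5. No difference has a replicate check, and lane and treatment cannot be told apart. The input library served the authors for peak calling and was not analysed here.

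Butyrate is a short-chain fatty acid that bacteria of the rumen and gut produce, and it inhibits histone deacetylases. The acetyl marks H3K9ac and H3K27ac lie at active promoters, and H3K27ac also marks active enhancers. Pol II transcribes the protein-coding genes, and H3K9me3 is a mark of silent, compact chromatin. Gene-dense chromosomes are in general rich in open and transcribed chromatin, so active marks are often dense on them and silencing marks sparse. A peak in these lists is a stretch where the peak caller found more reads than in the input, and the lists give its position only.

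The gene density in the label held for both chromosomes. In the RefSeq annotation of the ARS-UCD2.0 assembly, chromosome 19 carried 1192 protein-coding genes and chromosome 25 carried 705. Divided by the chromosome spans of the peak lists, which are of UMD3.1.1, these came to 18.6 and 16.4 per Mb. The other autosomes carried 7.61 per Mb. Of 27 autosomes ranked, only chromosome 18 was denser than chromosome 19, at 18.7 per Mb, a gap too small to order them across assemblies. Genes were also shorter on the pair, with a median length of 11.6 kb on chromosome 19 and 12.1 kb on chromosome 25 against 18.6 kb elsewhere. All 10 genes looked up for chromosome 19 were on it, among them FASN, which makes fatty acids, STAT3, a cytokine-activated transcription factor, and COL1A1, a chain of type I collagen. All 10 looked up for chromosome 25 were on it, among them CREBBP, an acetyltransferase that acts on H3K27, ACTB, a cytoskeletal actin, and TSC2, a brake on mTOR signalling. That annotation is of another assembly than the peaks, so no gene was placed at a peak.

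The acetyl marks were dense on chromosome 19 and close to the level of the other autosomes on chromosome 25. For H3K27ac, chromosome 19 held 51.1 peaks per Mb in control cells and 110 per Mb after butyrate, which was 1.44 and 1.54 times the density of the other autosomes (exact 95% intervals 1.39 to 1.49 and 1.5 to 1.58). These were the highest densities of the 27 autosomes, above chromosome 10 with 49.2 and 98.6 per Mb. In control cells the exact intervals of the 2 densities overlapped (49.4 to 52.9 and 47.8 to 50.5), and after butyrate they did not (107.6 to 112.8 and 96.7 to 100.5). Chromosome 25 held 38.4 and 72.4 per Mb, at ranks 9 and 14, and its ratios were 1.08 (1.03 to 1.14) and 1.01 (0.976 to 1.05). Over peaks of at least 500 bp its control ratio was 0.975 (0.868 to 1.09). Nearly the same number of genes per Mb thus went with very different amounts of H3K27ac. The intervals given here and below cover counting error only and treat peaks as independent, which neighbouring peaks are not.

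H3K9ac followed the same order. Chromosome 19 held 35.6 H3K9ac peaks per Mb in control cells and 54.9 after butyrate, 1.28 and 1.23 times the other autosomes, and ranked below chromosome 10 alone. Chromosome 25 held 25.7 and 38.97 per Mb, 0.922 and 0.877 times the other autosomes, and stood at rank 19 in both conditions. Chromosome 18, with about as many genes per Mb as chromosome 19, was lower still, at 0.733 and 0.720 times. H3K27ac covered 2.12% of chromosome 19 in control cells and 4.68% after butyrate, against 1.48% and 2.98% of chromosome 25.

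**Figure D1:**
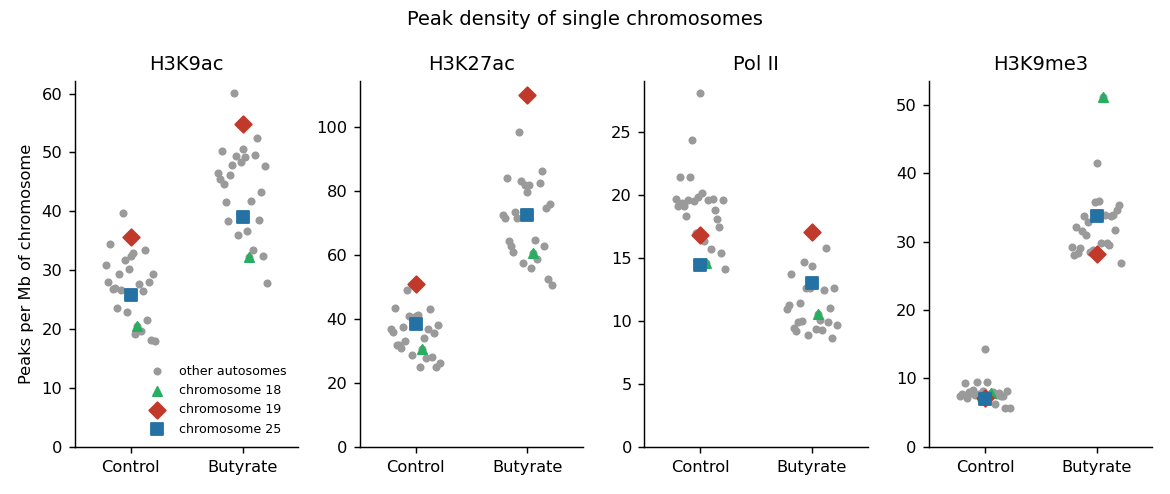
Peaks per Mb (y axis, from 0) of single autosomes in control and butyrate cells for each antibody, with chromosome 19 as red diamonds, chromosome 25 as blue squares, chromosome 18 as green triangles and the rest as grey dots. Chromosome 19 tops the H3K27ac lists at 51.1 and 110 peaks per Mb, and chromosome 25 lies inside the grey range for both acetyl marks. For Pol II after butyrate, chromosome 19 lies above the grey range, at 17.1 peaks per Mb against at most 15.8. Chromosome 25 goes from 14.4 to 13.0, while the grey dots also fall.

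Pol II gave another picture, and it turned over with treatment. In control cells chromosome 19 held 16.8 Pol II peaks per Mb and chromosome 25 held 14.4, which was 0.868 and 0.742 times the other autosomes and put them at ranks 21 and 26 of 27. After butyrate they held 17.1 and 13.0 per Mb, 1.52 and 1.15 times the other autosomes, at ranks 1 and 7. Chromosome 19 and the next, chromosome 23 with 15.8 per Mb after butyrate, had overlapping intervals (16.1 to 18.1 and 14.7 to 16.9). The chromosomes with most genes per Mb were thus among the poorest in Pol II peaks before treatment. Only 17 control Pol II peaks of both chromosomes were 500 bp or longer, and over peaks of that length the control density was 1.23 times the other autosomes (0.707 to 2.01).

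The silencing mark was a little sparse on both chromosomes in control cells. H3K9me3 stood at 7.22 peaks per Mb on chromosome 19 and 7.04 on chromosome 25, 0.895 and 0.872 times the other autosomes. After butyrate the ratios were 0.876 (0.835 to 0.918) and 1.05 (0.996 to 1.11), whereas chromosome 18 reached 1.62. High gene density therefore did not go with 1 common level of H3K9me3 after treatment. Over peaks of at least 500 bp, of which control cells had 6 on the pair, the joint ratios were 1.19 (0.426 to 2.67) in control cells and 1.31 (1.11 to 1.53) after butyrate.

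Counted per gene rather than per Mb, both chromosomes were poor in peaks. Control H3K27ac came to 2.74 peaks per protein-coding gene on chromosome 19 and 2.34 on chromosome 25, against 4.66 on the other autosomes. In all 8 lists the pair stood between ranks 23 and 27 of 27 on this scale. Low values were not particular to the pair. Control H3K27ac came to 1.64 on chromosome 18 and 2.095 on chromosome 29, which has 12.5 genes per Mb. The scale divides by the gene number for which the pair was labelled. The values set peak counts on UMD3.1.1 chromosomes beside gene counts of ARS-UCD2.0.

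**Figure D2:**
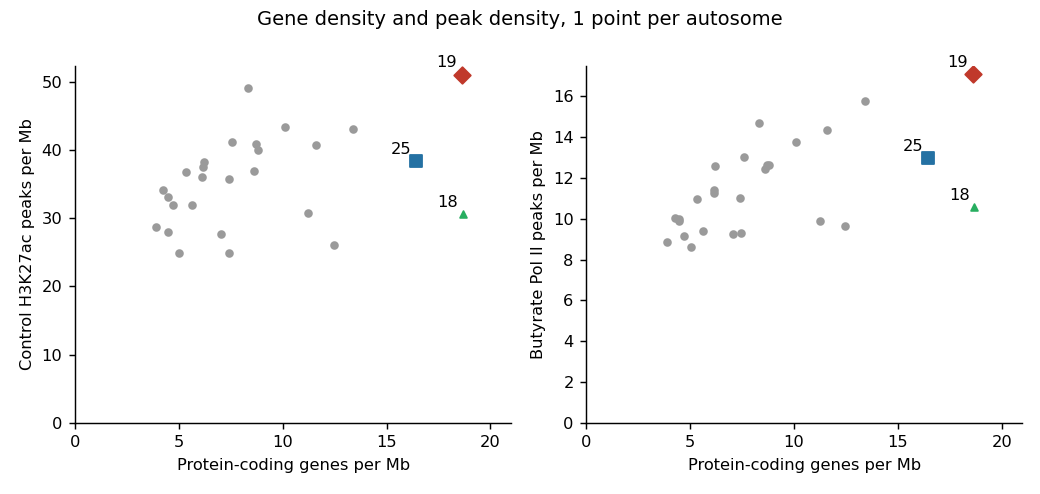
Protein-coding genes per Mb (x axis) against peaks per Mb (y axis, from 0) for control H3K27ac and butyrate Pol II, with 1 point per autosome and chromosomes 18, 19 and 25 labelled. The 3 chromosomes with 16.4 to 18.7 genes per Mb differ widely in peaks, with chromosome 19 at 51.1 control H3K27ac peaks per Mb and chromosome 18 at 30.6.

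More acetyl and H3K9me3 peaks were listed after butyrate on both chromosomes, much as elsewhere. H3K9ac peaks went from 2281 to 3511 on chromosome 19 and from 1103 to 1672 on chromosome 25. H3K27ac peaks went from 3271 to 7053 and from 1648 to 3108, and H3K9me3 peaks from 462 to 1800 and from 302 to 1446. Pol II peaks, which numbered 42671 and then 24722 on the other autosomes, stayed close to their control number, at 1078 and 1094 on chromosome 19 and 618 and 557 on chromosome 25.

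On the log2 scale the butyrate to control ratio of Pol II peak number was 0.02 on chromosome 19 (95% interval −0.10 to 0.14) and −0.15 on chromosome 25 (−0.32 to 0.02). Across the other autosomes together it was −0.79, and single ones ran from −1.10 on chromosome 9 to −0.25 on chromosome 23. The pair differed from the other autosomes by 0.75 (0.65 to 0.85) and took the top ranks of the 27. Chromosome 18, with as many genes per Mb as chromosome 19, had −0.47 and so lay within the range of the rest. Over peaks of at least 500 bp the difference was 0.53 with an interval from −0.25 to 1.31, which holds 0.

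The other antibodies did not set the pair apart in this way. The log2 ratio for H3K9ac was 0.62 and 0.60 against 0.67 elsewhere, and for H3K9me3 it was 1.96 and 2.26 against 1.99. On chromosome 25 the H3K9me3 ratio ranked 3 of 27, at 0.27 above the other autosomes (0.09 to 0.45). For H3K27ac the log2 ratio elsewhere was 1.01. It was 1.11 on chromosome 19, the fifth highest of 27, and 0.92 on chromosome 25, the lowest of 27. Neither side of the mean was stable for H3K27ac, since the difference from the other autosomes went from 0.095 to −0.050 on chromosome 19 over peaks of at least 500 bp, and from −0.098 to 0.015 on chromosome 25 with peaks less than 1 kb apart joined.

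**Figure D3:**
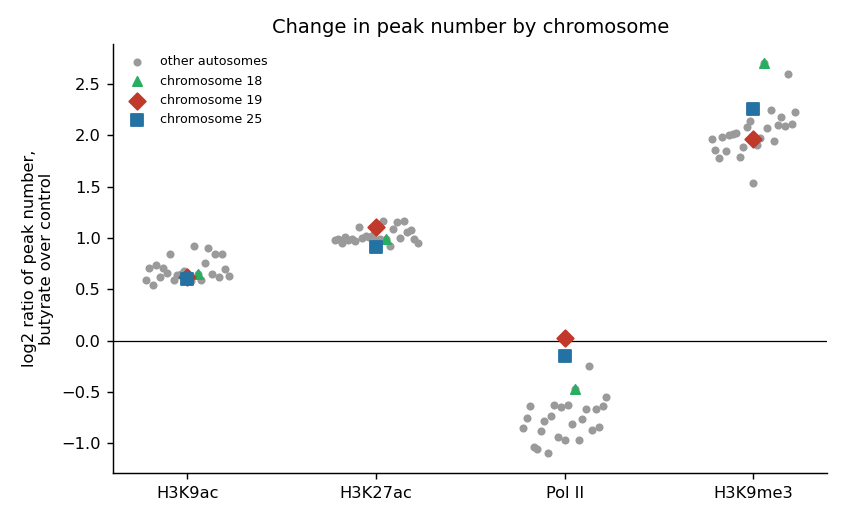
log2 ratio of peak number, butyrate over control (y axis), of single autosomes for the 4 antibodies, marked as in the plot of densities. Chromosomes 19 and 25 lie inside or at the edge of the grey range for H3K9ac, H3K27ac and H3K9me3, and above all other autosomes for Pol II, at 0.02 and −0.15.

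The Pol II lists also changed in peak length. On chromosomes 19 and 25 Pol II peaks under 200 bp went from 609 to 390, those from 200 to under 300 bp from 837 to 853, those from 300 to under 500 bp from 233 to 329 and those from 500 bp to under 1 kb from 16 to 75. On the other autosomes the same classes went from 16769 to 6418, from 19695 to 12460, from 5923 to 4927 and from 281 to 855. Fewer of the shortest peaks were listed after butyrate everywhere, but the drop was smaller on this pair. Long H3K9ac peaks, of 1 kb or more, went from 105 to 20 on the pair and from 2102 to 448 elsewhere.

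Splitting Pol II peaks by acetylation gave higher values for this pair in both classes. Against 1 fixed list, the acetyl peaks of either condition, Pol II peaks that met an H3K9ac or H3K27ac peak went from 638 to 1200 on chromosomes 19 and 25. That is a log2 ratio of 0.91 against 0.66 on the other autosomes (difference 0.25, 0.11 to 0.40). Pol II peaks off this list went from 1058 to 451, a log2 ratio of −1.23 against −2.15 (difference 0.92, 0.75 to 1.08). Both classes were higher on chromosome 25 as well as on 19, with differences of 0.40 and 0.79 there and of 0.19 and 1.00 on chromosome 19. With the acetyl peaks of each condition, which themselves cover more bases after butyrate, the differences were 0.35 (0.15 to 0.54) and 0.81 (0.67 to 0.96), and the acetylated share of Pol II peaks was 16.3% in control cells (14.6 to 18.1) and 65.6% after butyrate (63.3 to 67.9), and elsewhere 12.3% and 65.5%.

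The Pol II difference was seen in windows of every acetylation level. Windows of 1 Mb were grouped by their number of control H3K27ac peaks, and chromosomes 19 and 25 had 27 windows with 0 to 19 such peaks, 28 with 20 to 39, 36 with 40 to 79 and 17 with 80 or more. The log2 ratio of Pol II peak number in these groups was −1.04, −0.30, 0.09 and 0.33 on the pair. On the other autosomes it was −2.00, −0.97, −0.56 and −0.06. The ratio was higher in windows with more acetylation on both sides, and the pair lay above by 0.96, 0.67, 0.65 and 0.39. In the windows poorest in H3K27ac the H3K9me3 ratio was higher on the pair too, at 3.03 against 2.43 on the log2 scale (difference 0.60, 0.32 to 0.88). In the richer groups the H3K9me3 difference was 0.08 (−0.17 to 0.33), −0.15 (−0.34 to 0.04) and 0.33 (0.07 to 0.60), so it had no common direction.

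**Figure D4:**
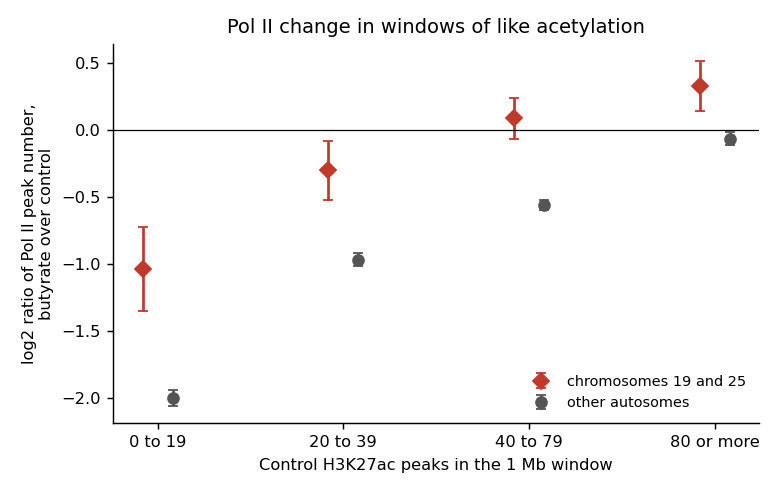
log2 ratio of Pol II peak number, butyrate over control (y axis), in 1 Mb windows grouped by their control H3K27ac peaks (x axis), for chromosomes 19 and 25 (red diamonds) and the other autosomes (grey circles), with bars for 95% counting intervals. The values rise from −1.04 to 0.33 on the pair and from −2.00 to −0.06 elsewhere, and the bars do not overlap in any group.

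The acetylation groups above and the single windows below recount the same Pol II peaks. The pair was chosen with their change in view, so both show how it was spread and add no support. Of windows with at least 10 Pol II peaks over both conditions, 18 of 96 on the pair had at most 0.5 times as many after butyrate, or 18.8%, against 1003 of 1933 on the other autosomes and 51.4% over all chromosomes. At least 2 times as many were found in 10 of 96, or 10.4%, against 2.71% over all chromosomes. By chromosome, 5 of 57 windows reached 2 times on chromosome 19 and 5 of 39 on chromosome 25, so neither chromosome alone supplied them. The largest rise in bases under Pol II peaks on chromosome 19 was at 22 to 23 Mb, where 9 peaks became 30, and on chromosome 25 at 37 to 38 Mb, where 19 became 39. The largest falls were at 12 to 13 Mb of chromosome 19, from 44 to 22 peaks, and at 32 to 33 Mb of chromosome 25, from 20 to 3.

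For the other antibodies the window counts of the pair lay nearer the background. At least 2 times as many H3K27ac peaks were found in 34 of 56 windows of chromosome 19 and 15 of 40 of chromosome 25, against 49.5% of all windows. For H3K9ac it was 12 of 56 and 14 of 39, against 32.6%. For H3K9me3 it was 48 of 62 and 36 of 40, against 88.4%. A fall to at most 0.5 times was seen in 1 window of the pair for H3K9ac and in 0 for H3K27ac and H3K9me3, where 1.6%, 0.464% and 0% of all windows did so. The largest rise in bases under H3K27ac peaks was at 21 to 22 Mb of chromosome 19, from 137 to 321 peaks, and at 28 to 29 Mb of chromosome 25, from 61 to 192. The latter window also had the largest H3K9ac rise of chromosome 25, from 58 to 107 peaks. At 6 to 7 Mb of chromosome 19 the acetyl marks had their largest falls in covered bases, from 32.6 to 18.5 kb for H3K9ac and from 45.9 to 37.9 kb for H3K27ac, and H3K9me3 had its largest rise in covered bases, from 4.24 to 29.5 kb. By number of peaks, the H3K9me3 rise was larger at 60 to 61 Mb, from 2 to 97.

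Chromosome 19 was rich in H3K27ac in spite of stretches without any. In 8 of its 65 windows no control H3K27ac peak was listed, including all 4 windows from its start to 4 Mb. Chromosome 25 had no such window. The last of the 8 is only the short end piece of a chromosome span of 64.02 Mb. Windows without such a peak were not counted on the other autosomes. There 933 of 2213 windows held 0 to 19 control H3K27ac peaks, against 27 of 108 on the pair. Over these 8 windows the lists held 1 control H3K9ac peak, 44 control Pol II peaks and 24 control H3K9me3 peaks. After butyrate they held 6 H3K9ac, 7 H3K27ac, 16 Pol II and 272 H3K9me3 peaks, so nearly all butyrate peaks there were H3K9me3. All 13 acetyl peaks after butyrate lay in 1 of them, at 30 to 31 Mb. For scale, the median window held 25 butyrate H3K9me3 peaks on chromosome 19 and 29 on the other autosomes. On chromosome 25 the middle part of its length was denser in H3K9ac than its ends, at 33.3 control peaks per Mb against 17.6 in the first part and 26.2 in the last.

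A stretch of 60.1 kb, chr19:10973144-11033210, held the longest peak of chromosome 19 in 5 of the 8 lists. It was singled out after these lengths were seen. The longest control H3K27ac peak, chr19:11022539-11029707, spanned 7169 bp, and the longest control H3K9ac peak, chr19:10973144-10977613, spanned 4470 bp. The longest Pol II peaks lay together, at chr19:11030486-11032810 with 2325 bp in control cells and chr19:11029842-11033210 with 3369 bp after butyrate, whereas the next longest control Pol II peak of the chromosome had 719 bp. Broad acetylation and an exceptionally long Pol II peak thus sat side by side before treatment.

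After butyrate the marks in this stretch changed unequally. H3K9ac covered 55.2% of it in control cells, in 27 peaks, and 23.9% after butyrate, in 37 peaks. H3K27ac covered 62.3% and 53.9%, in 24 and 39 peaks. Pol II covered 5.97% and 13.2%, in 6 and 14 peaks. H3K9me3 had 1 peak in each condition. H3K9ac was thus listed as more and shorter peaks, with 11 of 1 kb or more before and 1 after, while Pol II covered more bases than before.

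On chromosome 25 no single stretch held most of the longest peaks. Its longest control H3K9ac peak was chr25:8954433-8957121, with 2689 bp, and its longest butyrate H3K27ac peak was chr25:10286911-10290213, with 3303 bp. The longest control Pol II peak, chr25:37773968-37774619 with 652 bp, lay inside the longest butyrate H3K9ac peak, chr25:37773490-37774715 with 1226 bp. Its longest butyrate H3K9me3 peak, chr25:39088045-39090112, had 2068 bp and was longer than any H3K9me3 peak of chromosome 19, where the longest had 1210 bp.

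At an overlap of 1 bp the pair retained H3K27ac peaks in about the share seen elsewhere, and H3K9ac peaks in a slightly lower one. Retained peaks were those of control cells that shared 1 bp or more with a peak of the same mark in butyrate cells. Chromosome 19 retained 1057 of 2281 H3K9ac peaks (46.3%) and chromosome 25 retained 503 of 1103 (45.6%), against 48.8% on the other autosomes and 48.6% over all chromosomes. The joint difference was −2.70 percentage points (−4.42 to −0.97). It was uneven over the window groups. With 20 to 39 control H3K27ac peaks per window, the pair retained 37.8% of H3K9ac peaks against 48.4% (difference −10.6 points, −14.8 to −6.19). In the poorest group the difference was 3.51 points (−5.33 to 12.4). In the 2 richest it was −1.95 (−4.56 to 0.67) and −1.30 (−4.12 to 1.53). For H3K27ac the shares were 67.5% and 62.6%, the latter the lowest of 27, against 66.4% elsewhere and 65.9% over all chromosomes. The joint H3K27ac difference of −0.51 points depended on the lists, since it was −9.18 over peaks of at least 500 bp, −2.37 when 50% of the length had to be shared and −3.39 with lists of equal size.

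Pol II peaks were rarely retained, though more often on chromosome 19 than on any other autosome ranked. There 72 of 1078 control Pol II peaks met a butyrate one, or 6.68% (5.34 to 8.33), and on chromosome 25 it was 26 of 618, or 4.21%. The other autosomes together had 3.76%, with chromosome 15 the highest at 6.56%, well inside the interval of chromosome 19, and all chromosomes had 4.59%. The near-constant number of Pol II peaks therefore did not come from the same positions. Of the butyrate Pol II peaks, 93.4% on chromosome 19 and 95.2% on chromosome 25 were gained, that is, met no control peak, against 93.5% elsewhere and 91.7% over all chromosomes.

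H3K9me3 was retained at 13.2% and 14.9%, against 12.8% elsewhere and 16.1% over all chromosomes. Gained shares of the other antibodies were also close to the background. They were 68.9% and 69.4% for H3K9ac (67.2% over all chromosomes), 69.0% and 67.2% for H3K27ac (67.7%) and 96.7% and 96.8% for H3K9me3 (95.4%). Gained H3K27ac peaks lay a median of 3.27 kb from the nearest control peak of that mark on the pair and 3.19 kb elsewhere, and gained Pol II peaks 11.3 and 10.2 kb. These joint medians differed little, but single chromosomes varied more. Gained Pol II peaks lay a median of 10.8 kb away on chromosome 19 and 13.3 kb on chromosome 25. On chromosome 25, 27.2% of them lay within 5 kb (23.6 to 31.1), against 32.2% elsewhere. Gained H3K9me3 peaks lay 45.7 kb away on chromosome 19 and 36.9 kb on chromosome 25, against 37.0 kb elsewhere.

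Pol II peaks found in both conditions mostly carried H3K27ac on chromosome 19. Of its 72 butyrate Pol II peaks that met a control one, 64 met butyrate H3K27ac, or 88.9% (79.6 to 94.3), against 19 of 27 on chromosome 25, or 70.4%, and 70.5% elsewhere. Among gained Pol II peaks the shares were 61.9%, 58.5% and 60.01%. Control Pol II positions of chromosome 19 also met butyrate H3K27ac more often, at 363 of 1078 or 33.7%, than those of any other autosome ranked, where the highest share was 24.4%. Control H3K9me3 positions did so as well, at 123 of 462 or 26.6% against 17.4% elsewhere. Butyrate H3K27ac covers more of chromosome 19 than of the others, and per base the Pol II overlap was 6.15 times that given by coverage alone on chromosome 19, 6.01 times on chromosome 25 and 5.20 times elsewhere. For control H3K9me3 the same figure was 4.95 times on chromosome 19 and 4.78 times elsewhere.

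H3K9ac peaks met H3K27ac more often on chromosome 19 than on any other autosome ranked. Of its H3K9ac peaks, 63.8% met H3K27ac in control cells and 69.2% after butyrate, the highest of 27 in both, against 60.4% and 61.6% elsewhere. In control cells chromosome 8 had 63.7%, well inside the interval of chromosome 19 (61.8 to 65.8). Chromosome 25 had 62.8% and 60.6%. Of the bases of control H3K9ac peaks, 60.2% lay under H3K27ac on chromosome 19, 58.5% on chromosome 25 and 57.3% elsewhere. Set against H3K27ac coverage the order was the reverse. The overlap was 28.4 times that given by coverage on chromosome 19, the lowest of 27. It was 39.5 times on chromosome 25 and 40.3 times elsewhere. Control H3K27ac covered 2.12% of chromosome 19 and 1.42% of the other autosomes. Higher coverage lowers the most that this ratio can reach. The joint difference after butyrate, 4.83 points (3.49 to 6.14), was 0.64 points over peaks of at least 500 bp. Read from the side of H3K27ac, only 41.6% of control H3K27ac peaks of the pair met H3K9ac, against 45.8% elsewhere (difference −4.18 points, −5.60 to −2.76).

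Combinations of marks differed most in regions with a single mark. Overlapping peaks of the 4 antibodies were joined within a condition, which gave 8027 regions on the pair in control cells and 15181 after butyrate. H3K27ac alone made up 34.6% of control regions (33.5 to 35.6) against 26.7% elsewhere, and chromosomes 19 and 25, at 34.8% and 34.2%, took the top 2 ranks above a range of 23.3% to 30.6%. Pol II alone made up 17.2% against 24.1%, and the pair, at 16.4% and 18.6%, took the lowest 2 ranks below a range of 20.4% to 27.4%. For both of these shares the 2 chromosomes stood outside the range of all 25 others. A share also depends on the other classes, and per Mb this did not hold for both chromosomes. H3K27ac alone came to 28.46 regions per Mb on chromosome 19, above the others' highest of 24.08. On chromosome 25 it came to 22.24, at rank 4. Pol II alone came to 12.1 per Mb on chromosome 25, below the others' lowest of 12.29. On chromosome 19 it came to 13.4, at rank 24. Both acetyl marks together made up 21.4% against 19.5%, and all 3 active marks together 1.56% against 1.46%.

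After butyrate the chromosomes parted in their shares. H3K27ac alone made up 45.2% of regions on chromosome 19, above all others, whose highest was 39.6%, and 37.9% on chromosome 25, at rank 6. H3K9me3 alone made up 16.3% on chromosome 19, the lowest of 27, and 25.3% on chromosome 25, against 24.4% elsewhere. Per Mb the gap was smaller. H3K9me3 alone came to 25.32 regions per Mb on chromosome 19, at rank 26, and 30.72 on chromosome 25, against 29.34 elsewhere. H3K27ac alone came to 70.3 per Mb on chromosome 19 and 43.3 elsewhere, which lowers the other shares of chromosome 19. Regions with Pol II alone, which had been scarce, came to 3.50% of regions on the pair against 2.97% elsewhere, after their number went from 1377 to 531 and from 36424 to 7841. Regions with H3K9ac, H3K27ac and Pol II came to 4.11% on chromosome 19, the highest of 27, 3.40% on chromosome 25 and 3.44% elsewhere.

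**Figure D5:**
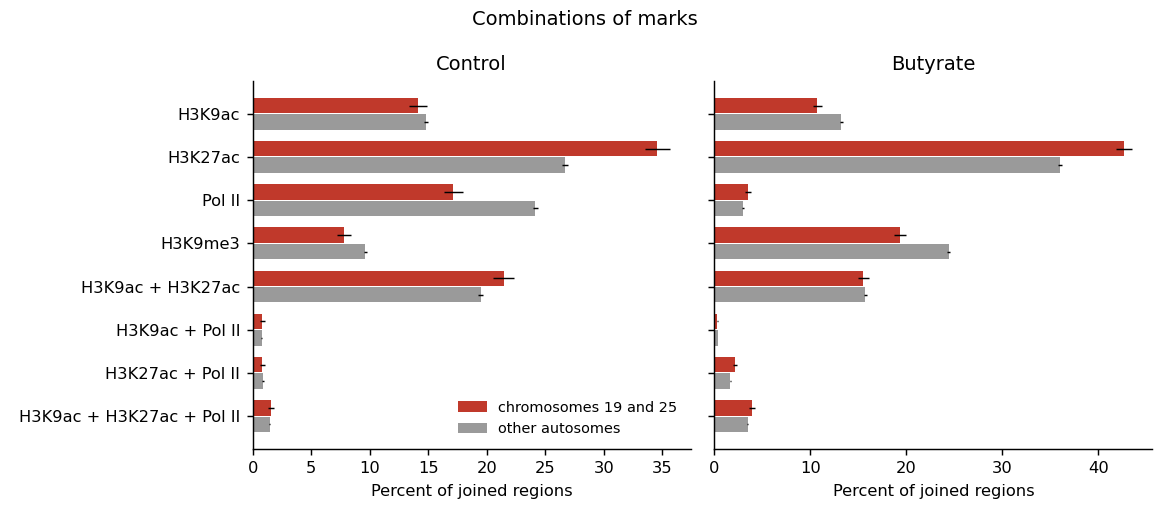
Percent of joined regions (x axis, from 0, with a separate scale in each panel) that hold each combination of marks in control and butyrate cells, for chromosomes 19 and 25 (red) and the other autosomes (grey), with bars for 95% Wilson intervals. H3K27ac alone is the commonest class on the pair, at 34.6% and 42.7%, and Pol II alone is lower there than elsewhere in control cells, at 17.2% against 24.1%.

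Regions with both acetyl marks in control cells were followed to butyrate. Of 1836 such regions on the pair, 54.5% kept both, against 58.3% elsewhere (difference −3.76 points, −6.11 to −1.43). The share that kept H3K27ac but not H3K9ac was 32.1% against 28.2%, and the share that kept H3K9ac alone was 1.63% against 3.24%. Neither acetyl mark was left in 11.8% against 10.2%. On chromosome 25 that last share was 14.7% (difference 4.48 points, 1.85 to 7.56), and its H3K27ac-only difference held 0 (2.69 points, −0.92 to 6.54). On chromosome 19 the difference in keeping both held 0 (−2.62 points, −5.46 to 0.18). Doubly acetylated regions also met butyrate Pol II more often, at 28.0% against 24.5% (25.99 to 30.1 and 24.01 to 24.96). On chromosome 25 alone that difference held 0 (2.94 points, −0.52 to 6.68). Butyrate Pol II peaks were also denser on the pair. They covered 0.427% of the pair and 0.304% of the other autosomes. Of the bases of control H3K9ac peaks, 11.9% on the pair and 9.69% elsewhere lay under them. That was 27.9 and 31.8 times what coverage alone gives. For control H3K27ac peaks the shares were 8.44% and 7.82%, or 19.8 and 25.7 times. With the 2 chromosomes joined, the balance of the acetyl marks lay further towards H3K27ac than elsewhere in control cells, in butyrate cells and among these regions. The shift in the peak lists was not particular to the pair. In control cells 40.5% of H3K27ac peaks met H3K9ac on chromosome 18 and 39.5% on chromosome 21, against 41.6% on the pair. After butyrate chromosome 18 had the lowest share of 27, at 29.9%, against 31.7% on chromosome 19 and 31.4% on chromosome 25.

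Few regions carried everything. Of 17842 regions on the pair joined over all 8 lists, 100 held peaks of at least 6 lists, or 0.56%, against 0.55% elsewhere. Peaks of all 8 lists met at chr19:15346203-15347677, chr19:36615723-36616293 and chr25:16531724-16533328.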

How the data were processed

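The authors removed reads that failed the sequencer's quality filter, aligned the rest with BWA to cattle assembly UMD3.1.1, kept uniquely mapped reads and called peaks per library with MACS2 at default settings against the MDBK input. The submitters' processing notes also list Trim Galore 0.4.1, which the study's methods name for other data types. The deposited lists give chromosome, start and end, with no height, p-value or count of reads, so sequencing depth was not used. The number of peaks a caller finds rises with depth, and comparisons within a library are free of that only as far as all chromosomes share it. Starts were read as counted from 0 and printed with 1 added. The shortest end minus start was 199 bp in every list, so starts may be counted from 1, and printed starts would then be 1 too high.

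Peaks were counted per chromosome over its span (the last peak end of any list), in 1 Mb windows from the chromosome start, and as retained, gained or overlapping at a minimum of 1 bp. Intervals at the 95% level were exact for density ratios, Wilson for shares, Newcombe for their differences, and from the variance of log counts for log2 differences. With 1 library per group no p-value was computed. Chromosomes 5 and 14 were left out of the comparison by the rule that defined it and were added back as an alternative. Named regions were the longest peak per list and chromosome, the windows with the largest rise and fall in covered bases, and regions in all 8 lists. The split of Pol II peaks by acetylation, the windows without H3K27ac and the stretch at 11 Mb of chromosome 19 were added later, and so was the fixed list of acetyl peaks for that split. The members, lists and rules were chosen with earlier results of these data known. The code was tested on simulated data. Counting and intervals used Python 3.11.15 with scipy 1.17.1 and numpy 2.4.6, and plots matplotlib 3.10.9.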

Additional observations from a re-analysis of the deposited data

Results flagged for a closer look

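The Pol II peak number of chromosome 19 moved in the opposite direction to that of the other autosomes, with a log2 ratio of butyrate to control of 0.021 against −0.79. Each condition had 1 Pol II library, and the difference was not tested. The 95% counting interval of the chromosome 19 value, −0.10 to 0.14, holds 0.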

How the results depend on the processing

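Of 104 alternative values for chromosomes 19 and 25 together, 67 stayed inside the counting interval of the reported value, and 15 had the other sign. In 11 of the 15 the reported interval held the point of no difference (a ratio of 1 or a difference of 0), and 7 of these 11 lay outside that interval. In the other 4 it did not hold that point. No paired analysis was possible because the groups hold no second sample.

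These 4 came with peaks of at least 500 bp, which leaves 17 control Pol II and 6 control H3K9me3 peaks. Density ratios then became 1.23 for control Pol II, 1.19 for control H3K9me3 and 1.31 for butyrate H3K9me3, and the difference in overlap of control Pol II with H3K27ac became −3.27 points. For single chromosomes, among values whose interval did not hold that point, the same minimum turned the density ratios of chromosome 19 to 1.57 (control Pol II), 1.65 (control H3K9me3) and 1.10 (butyrate H3K9me3), its H3K27ac log2 difference to −0.050, its H3K9ac retained difference to 0.62 points and its Pol II overlap differences to −1.46 (control) and −7.75 points (butyrate), and the density ratio of chromosome 25 to 0.975 for control H3K27ac. Joining peaks turned the H3K27ac log2 difference of chromosome 25 to 0.015.

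With peaks of at least 500 bp, values moved to a density ratio of 1.08 for control H3K9ac, 1.27 for butyrate H3K27ac and 1.77 for butyrate Pol II. Log2 differences moved to 0.043 (H3K9ac), −0.060 (H3K27ac) and 0.53 (Pol II). Retained differences moved to −9.18 (H3K27ac), 0.60 (Pol II) and −10.6 points (H3K9me3), gained ones to 3.46 (H3K9ac) and 2.43 points (H3K27ac), and overlap differences to 32.4 (control H3K9me3), 0.64 (butyrate H3K9ac) and −2.79 points (butyrate Pol II). Joining peaks less than 1 kb apart gave density ratios of 1.19 (control H3K9ac) and 1.36 (butyrate H3K27ac) and log2 differences of −0.13 (H3K9ac) and 0.10 (H3K27ac). Covered bases gave a density ratio of 1.30 for butyrate H3K27ac.

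Adding chromosomes 5 and 14 gave density ratios of 1.09 (control H3K9ac), 1.25 (control H3K27ac), 0.704 (control Pol II), 1.27 (butyrate Pol II), 0.698 (control H3K9me3) and 0.860 (butyrate H3K9me3). It gave an H3K9me3 log2 difference of 0.30, an H3K9me3 retained difference of −1.97 points and gained differences of 2.36 (Pol II) and 1.31 points (H3K9me3). An overlap of at least 50% gave an H3K27ac retained difference of −2.37 points, and lists of equal size gave −3.39 retained and 2.60 points gained. For Pol II peaks without acetylation, a fixed list of butyrate acetyl peaks, chosen after seeing the data, gave a log2 difference of 0.98. The causes were not tested. The Pol II log2 difference of 0.75 stayed positive under each alternative.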
